A study of Mus musculus with 4 samples.

Results

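The genes described here are 10 members of the fibroblast growth factor (FGF) system, listed by symbol: the secreted ligands Fgf4, Fgf5, Fgf8, Fgf15 and Fgf17, the receptors Fgfr1, Fgfr2, Fgfr3 and Fgfr4, and the binding protein Fgfbp3. All 10 were found among the 55602 genes of the bulk table and among the 54750 genes of the allele-specific table. They were measured by stranded total RNA-seq in 2 wild-type (WT) and 2 Zfp57-/- libraries from cells differentiated towards neural precursors and harvested at day 12. Both genotypes were JB1 embryonic stem cells (ESCs), a male F1 hybrid line with a JF1 mother and a C57BL/6 father, and the Zfp57-/- cells were a single ESC line derived from JB1. Both were grown before differentiation with the Gsk3 inhibitor CHIR99021 and then received 1 µM cyclopamine, which blocks Hedgehog signalling, from day 2 to day 10, so that no library shows these genes without the inhibitor. Zfp57 encodes a zinc finger protein that keeps DNA methylation at imprinted control regions. The duplicates were called biological, without saying whether they came from separate differentiations, so p-values measure the spread between these libraries.

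FGF ligands bind receptor tyrosine kinases on the cell surface together with heparan sulfate, and the receptors pass the signal on through adaptor proteins, RAS and the ERK kinases. ERK then switches on transcription factors of the ETS family and a set of inhibitors, the Sprouty proteins, IL17RD and the DUSP phosphatases, that dampen the pathway. In pluripotent cells FGF4 drives exit from the naive state and FGF5 marks the primed epiblast, whereas in the neural tube FGF8, FGF15 and FGF17 are made at patterning centres such as the boundary of midbrain and hindbrain, and FGFR1, FGFR2 and FGFR3 are found on neural progenitors.

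The 4 libraries held 7663520 to 10337082 counts per library, of which 36.1 to 37.0% could be given to a parental allele. The WT replicates differed from each other by more than the Zfp57-/- replicates did: the squared difference between replicates was 43.2 times the counting variance in WT and 8.74 times in Zfp57-/- cells. Zfp57 itself, counted over the whole gene including exons outside the deletion, had 392 and 249 counts in WT and 158 and 144 in Zfp57-/- libraries. The libraries also differed in the cell types their markers point to. Neural genes summed to 2532 and 3033 CPM (counts normalised to library size, per 1000000 counts) in WT and to 1187 in each Zfp57-/- library, with 7 of 10 lower. The naive pluripotency list summed to 83.5 and 158 CPM in WT and to 1213 and 1261 in Zfp57-/- cells, with 7 of 8 genes higher and Nanog at 0 counts in both WT libraries. In bulk RNA, fewer cells of a type and less RNA of a gene per cell cannot be told apart.

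Across the 19995 genes with more than 8 counts over the 4 libraries, edgeR's quasi-likelihood test with Benjamini-Hochberg adjustment called 27.6% different between the genotypes at an adjusted p of 0.05, 13% higher and 14.6% lower in Zfp57-/- cells. Of the 10 FGF genes, 8 were called: Fgf4, Fgf5, Fgf8 and Fgf17 were higher, and Fgf15, Fgfr2, Fgfr3 and Fgfbp3 were lower. Fgfr1 and Fgfr4 were not called. In all 10 genes the 2 libraries of one genotype lay above both libraries of the other in CPM, as they did in 66.3% of all genes tested. Fold changes are given on the log2 scale, as Zfp57-/- minus WT, with their standard error (SE).

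**Figure D1:**
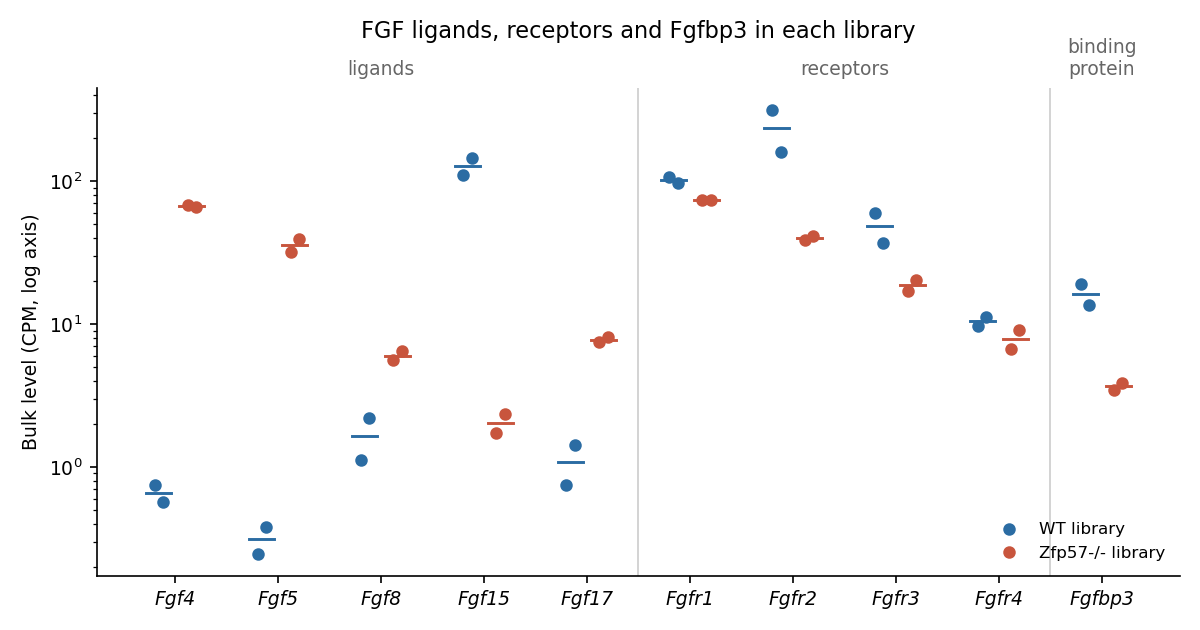
Level of each FGF gene in CPM (log axis) in the WT (blue) and Zfp57-/- (red) libraries; each point is 1 library and each bar the mean of 2. Fgf4 and Fgf5 are near the bottom of the axis in WT and at 31.8 to 68.3 CPM in Zfp57-/- libraries, Fgf15 shows the opposite, and the points of Fgfr1 and Fgfr4 lie close together.

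Fgf4, the ligand that pluripotent cells make for their own receptors, had 6 counts in each WT library and 636 and 641 in the Zfp57-/- libraries. The Zfp57-/- libraries agreed closely and stood 101-fold above WT (log2 fold change 6.66, SE 0.30, adjusted p = 1.754e-06 by edgeR). Fgf5, which marks the primed epiblast, had 2 and 4 counts in WT and 296 and 386 in Zfp57-/- cells. Both genes were thus close to undetected in WT, and the rise of Fgf5 was 106-fold (log2 fold change 6.73, SE 0.39, adjusted p = 4.235e-06 by edgeR). Fgf4 ranked 13 and Fgf5 ranked 52 among all genes by adjusted p.

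Fgf8 and Fgf17 are close relatives that are made together at the midbrain-hindbrain boundary and in the early embryo. Fgf8 had 9 and 23 counts in WT and 52 and 63 in Zfp57-/- cells, which is 3.56-fold more (log2 fold change 1.83, SE 0.50, adjusted p = 0.0229 by edgeR). This call was lost without either Zfp57-/- replicate (adjusted p = 0.115 without replicate 1 and 0.185 without replicate 2, edgeR). Fgf17 had 6 and 15 counts in WT and 70 and 79 in Zfp57-/- cells, a 6.96-fold rise (log2 fold change 2.80, SE 0.49, adjusted p = 0.00249 by edgeR). In both genes WT replicate 2 was the higher WT library, and the libraries of the 2 genotypes did not overlap. With Actb as the scale both kept their direction and neither passed the threshold (adjusted p = 0.351 for Fgf8 and 0.0742 for Fgf17, edgeR).

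Fgf15, which is made in the dividing cells of the neural tube and is the mouse counterpart of human FGF19, went the other way. It had 898 and 1526 counts in the WT libraries and 16 and 23 in the Zfp57-/- libraries. It fell 62.6-fold (log2 fold change -5.97, SE 0.29, adjusted p = 1.874e-06 by edgeR), and ranked 21 among all genes. The antisense gene Gm26793, which overlaps Fgf15 and was counted on its own strand, had 6 and 9 counts in WT and 0 and 1 in Zfp57-/- cells.

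The 4 ligands that were higher and the 1 that was lower were set beside the marker genes of the places where they are made. At the midbrain-hindbrain boundary, 6 of 7 markers were lower and 1 was higher, and their summed level was 85.1 and 117 CPM in WT against 18.0 and 18.4 CPM in Zfp57-/- cells. Wnt1, the signal made beside Fgf8 at that boundary, had 341 and 375 counts in WT and 0 and 1 in Zfp57-/- cells. Pax5 fell by 5.00 and En2 fell by 3.67 on the log2 scale (adjusted p = 4.347e-05 and 0.000271 by edgeR), whereas Gbx2, which is also a gene of pluripotent cells, rose by 1.43 (adjusted p = 0.0224 by edgeR). The Gbx2 call was lost without Zfp57-/- replicate 1 or 2 (adjusted p = 0.121 and 0.0678), and its log2 fold change was 2.11 without WT replicate 2, where that of En2 was -2.93. Fgf8 and Fgf17 were therefore higher in the libraries in which most of the other boundary genes were lower. Of the epiblast markers 5 of 8 were higher and 1, Sox3, was lower. Otx2 and Pou3f1 of that list were not called (log2 fold change -0.53 and -0.28, adjusted p = 0.149 and 0.524 by edgeR). Among the higher were Tdgf1 with 0 and 2 counts in WT and 2301 in each Zfp57-/- library, and Dnmt3b with a log2 fold change of 3.08 (adjusted p = 1.319e-05 by edgeR). The endoderm and mesoderm list had 3 of 8 genes higher, including Eomes and T, and 1 lower, and its sum was 273 and 512 CPM in WT and 573 and 763 CPM in Zfp57-/- cells. The anterior forebrain and eye field list had 2 of 5 tested genes lower and 0 higher. Its sum was 54.6 and 44.0 CPM in WT and 10.3 and 9.2 CPM in Zfp57-/- cells. The glia and oligodendrocyte precursor list had 2 of 7 genes higher and 2 lower. The part of these cell types in the ligand levels was not tested.

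The promoters of Fgf4 and Fgf5, the pair with the largest rise among the 10 genes, are shown because ZFP57 recognises the hexamers TGCCGC and GGCCGC when their CpG is methylated. The sequences are RefSeq promoters of GRCm38.p6, 250 bases before to 50 bases after the annotated start, read 5′ to 3′ on the gene's strand. Capitals mark either hexamer on either strand.
Fgf4, chr7:144861136-144861435, plus strand: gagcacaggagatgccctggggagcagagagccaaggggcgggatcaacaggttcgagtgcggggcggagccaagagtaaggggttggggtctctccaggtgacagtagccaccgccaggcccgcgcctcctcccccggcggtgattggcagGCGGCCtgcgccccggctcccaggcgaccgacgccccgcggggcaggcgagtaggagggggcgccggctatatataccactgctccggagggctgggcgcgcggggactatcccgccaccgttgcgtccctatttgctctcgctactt
Fgf5, chr5:98253934-98254233, plus strand: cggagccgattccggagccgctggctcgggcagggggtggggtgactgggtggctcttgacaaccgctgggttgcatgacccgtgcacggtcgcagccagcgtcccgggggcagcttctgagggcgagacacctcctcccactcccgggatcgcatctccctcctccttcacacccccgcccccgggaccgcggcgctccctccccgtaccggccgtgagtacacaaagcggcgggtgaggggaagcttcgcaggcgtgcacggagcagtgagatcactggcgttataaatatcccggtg
Both windows were rich in G and C (69.7% in Fgf4 and 68.3% in Fgf5, against a median of 52.7% over all RefSeq promoters). Fgf4 held 1 GGCCGC and no TGCCGC, and Fgf5 held neither. TGCCGC occurred in 11.6% of the 32851 promoters of this length, GGCCGC in 19.99%, and at least 1 of them in 26.8%. Fgf5 also held 1 TATAAA, the letters of a TATA box, which 13.6% of all promoters have. It lay in the 50 bases after the annotated start and not before it. These matches describe letters in a window and not binding.

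Fgf4 and Fgf15 lie next to each other on chromosome 7 of GRCm38, both on the plus strand. The annotation of the deposited counts, GENCODE vM20, places Fgf4 at chr7:144847367-144865243 and Fgf15 at chr7:144896531-144900953. Between the end of Fgf4 and the start of Fgf15 lie 31.3 kb. The GENCODE interval of Fgf4 begins upstream of the RefSeq start because of the first exon of a second transcript. The neighbours in this interval were examined after these values had been seen. Among genes that start within 500 kb of the Fgf15 start, Ano1, which codes for a chloride channel, had 386 and 358 counts in WT and 34 and 59 in Zfp57-/- cells (log2 fold change -3.07, SE 0.31, adjusted p = 9.391e-05 by edgeR). Ccnd1, the gene of cyclin D1, was also lower (log2 fold change -1.30, SE 0.28, adjusted p = 0.00735 by edgeR). Fgf3, the ligand gene on the other side of Fgf4, had 36 and 78 counts in WT and 23 and 26 in Zfp57-/- cells and was not called (log2 fold change -1.22, SE 0.46, adjusted p = 0.0748 by edgeR). The edgeR fit with the replicate block (adjusted p = 0.0467) and the fit without WT replicate 1 (adjusted p = 0.000459) did call Fgf3 lower. Of the 14 genes tested that overlap the 500 kb on either side, 5 were called (35.7%, against 27.6% of all genes). Both counts include Fgf4 and Fgf15, around which the window was drawn, so the share is not a measure of the neighbours. Fgf4 was higher, and Ano1, Fgf15, Ccnd1 and Shank2 (log2 fold change -1.88, adjusted p = 0.0219 by edgeR) were lower.

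**Figure D2:**
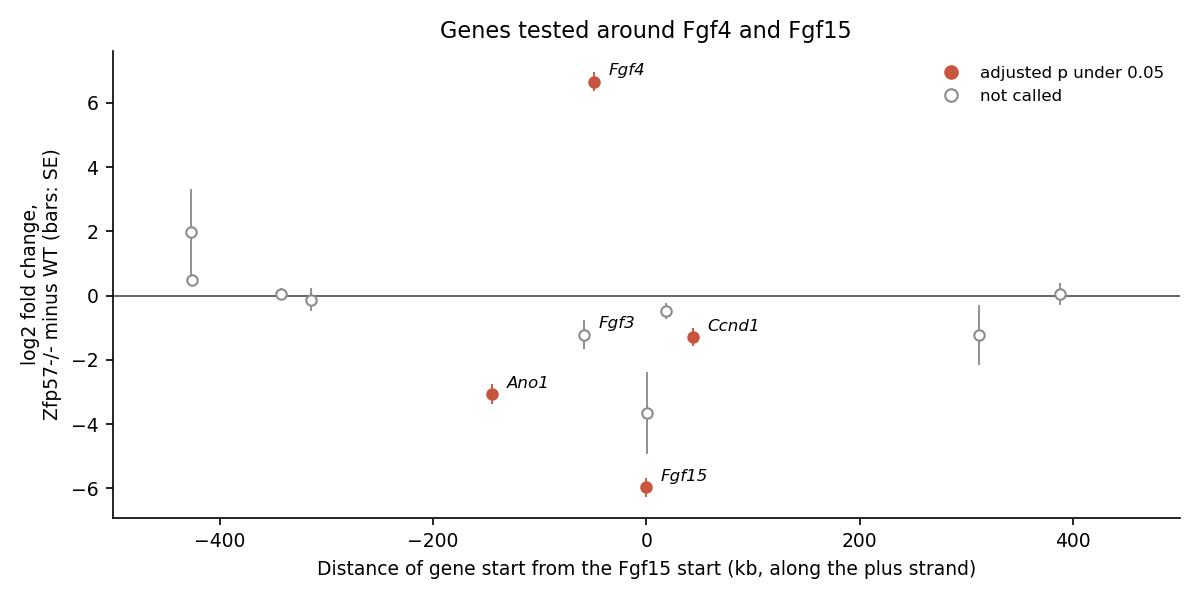
log2 fold change (Zfp57-/- minus WT, y axis, bars are SE) of the genes tested around Fgf4 and Fgf15 against the distance of their start from the start of Fgf15 (x axis, kb along the plus strand); filled points passed an adjusted p of 0.05. Fgf4 at 6.66 and Fgf15 at -5.97 are neighbours with opposite changes, and Fgf3 next to Fgf4 has an open point; Shank2, which starts outside the plotted range, is left out.

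Among the receptors, Fgfr2 changed most. It had 2531 and 1690 counts in WT and 363 and 407 in Zfp57-/- libraries. The WT replicates differed more than the Zfp57-/- replicates, and the fall of 5.89-fold was larger than both spreads (log2 fold change -2.56, SE 0.30, adjusted p = 0.000234 by edgeR). Fgfr3, whose activity restrains bone growth and which marks neural progenitors and astrocytes, had 483 and 385 counts in WT and 158 and 199 in Zfp57-/- cells. Its fall was 2.58-fold (log2 fold change -1.37, SE 0.27, adjusted p = 0.00441 by edgeR).

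Fgfr1, the receptor that FGF4 uses in pluripotent cells, had 860 and 1020 counts in WT and 689 and 719 in Zfp57-/- cells. Its level was 106 and 97.4 CPM in WT and 74.0 and 73.5 CPM in Zfp57-/- cells, and the log2 fold change of -0.47 (SE 0.18) did not pass the threshold (adjusted p = 0.0863 by edgeR). It passed without WT replicate 1 (adjusted p = 0.00718) and without WT replicate 2 (adjusted p = 0.000545), in edgeR fits in which the lone WT library is assumed to vary like the others. Fgfr4 was the receptor with the lowest counts, with 78 and 118 in WT and 62 and 89 in Zfp57-/- cells (log2 fold change -0.41, SE 0.32, adjusted p = 0.373 by edgeR). A difference between the genotypes in Fgfr4 was not detectable with these libraries.

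Fgfbp3, a secreted protein that releases FGFs from heparan sulfate, had 154 and 142 counts in WT and 32 and 38 in Zfp57-/- libraries. It fell 4.43-fold (log2 fold change -2.15, SE 0.33, adjusted p = 0.0012 by edgeR). Its relative Fgfbp1 went the opposite way, with 8 and 12 counts in WT and 201 and 255 in Zfp57-/- cells (log2 fold change 4.45, SE 0.34, adjusted p = 1.741e-05 by edgeR).

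The promoter sequences of the receptors and of Fgfbp3 were examined in the same way, again from RefSeq. The RefSeq window of Fgfr2, the receptor that fell most, and the downstream one of the 2 Fgfr3 promoters are shown with the same hexamers in capitals. The Fgfr3 window was the only member window with TGCCGC.
Fgfr2, chr7:130266759-130267058, minus strand: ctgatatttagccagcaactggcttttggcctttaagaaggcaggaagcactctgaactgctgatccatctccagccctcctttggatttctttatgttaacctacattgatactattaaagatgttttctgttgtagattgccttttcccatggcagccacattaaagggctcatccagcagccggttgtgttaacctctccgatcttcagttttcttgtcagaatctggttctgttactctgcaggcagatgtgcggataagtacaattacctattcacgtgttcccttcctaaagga
Fgfr3, chr5:33722056-33722355, plus strand: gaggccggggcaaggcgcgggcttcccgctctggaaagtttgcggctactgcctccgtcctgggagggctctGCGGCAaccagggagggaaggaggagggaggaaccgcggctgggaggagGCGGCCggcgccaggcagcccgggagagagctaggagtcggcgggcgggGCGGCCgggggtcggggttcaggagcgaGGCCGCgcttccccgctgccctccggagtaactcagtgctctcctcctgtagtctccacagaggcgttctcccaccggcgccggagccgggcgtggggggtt
The Fgfr2 window had 43.7% G and C, 4 CpGs and no match to either hexamer. It covers a single RefSeq start, and the rest of the gene was not searched. On this minus-strand gene, 26 of the 27 GENCODE vM21 transcripts start at chr7:130266263 or lower, outside the window. The letters near those starts were therefore not examined. The Fgfr3 window had 73.0% G and C, 30 CpGs, 1 TGCCGC and 3 GGCCGC. The upstream Fgfr3 promoter held 1 GGCCGC, and the promoters of Fgfr4 and Fgfbp3 held neither hexamer. The 6 genes with a RefSeq promoter in the table were Fgf4, Fgf5, Fgfr2, Fgfr3, Fgfr4 and Fgfbp3; promoters of Fgf8, Fgf15, Fgf17 and Fgfr1 were not analysed here.

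Counts of different genes are comparable only per length, so FPKM values (fragments per kilobase and per 1000000 fragments) were computed from the length of the merged exons. That length pools all annotated transcripts of a gene and ran from 1350 bases in Fgf8 to 10328 in Fgfr2. Levels, shares and sums compared between genes therefore depend on the annotation. The summed level of the 5 ligands was 38.0 and 50.4 FPKM in WT and 43.2 and 46.6 FPKM in Zfp57-/- libraries, so the ranges of the sum overlapped. Its make-up did not overlap. Fgf15 was 95.1% ± 0.96 (SD, n = 2) of the ligand sum in WT and 1.47% ± 0.25 (SD, n = 2) in Zfp57-/- cells. Fgf4 went from 0.48% ± 0.18 (SD, n = 2) to 46.7% ± 3.8 (SD, n = 2) and Fgf5 from 0.28% ± 0.030 (SD, n = 2) to 31.6% ± 3.2 (SD, n = 2). Fgf8 went from 2.70% ± 0.74 (SD, n = 2) to 9.90% ± 0.47 (SD, n = 2) and Fgf17 from 1.42% ± 0.37 (SD, n = 2) to 10.3% ± 0.025 (SD, n = 2). The sum of these 5 ligands, dominated by 1 gene in WT, was thus spread over 4 genes in Zfp57-/- cells. It leaves out the other ligands of the family. Of those, Fgf10 in Zfp57-/- cells and Fgf3 in WT had a higher mean CPM than Fgf8. With 2 libraries a group an exact two-sided permutation test cannot give a p below 0.333, so these shares are a description.

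The summed level of the 4 receptors was 52.2 and 33.8 FPKM in WT and 15.5 and 16.9 FPKM in Zfp57-/- libraries, and did not overlap. Fgfr2 made up 52.2% ± 8.4 (SD, n = 2) of it in WT and 24.1% ± 0.33 (SD, n = 2) in Zfp57-/- cells. Fgfr1 made up 24.9% ± 6.0 (SD, n = 2) in WT and 46.2% ± 3.0 (SD, n = 2) in Zfp57-/- cells. The leading receptor was thus Fgfr2 in both WT libraries and Fgfr1 in both Zfp57-/- libraries. The share of Fgfr3 was 15.6% ± 0.57 (SD, n = 2) in WT and 16.1% ± 1.1 (SD, n = 2) in Zfp57-/- cells and overlapped, and that of Fgfr4 was 7.32% ± 3.0 (SD, n = 2) and 13.7% ± 2.2 (SD, n = 2).

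**Figure D3:**
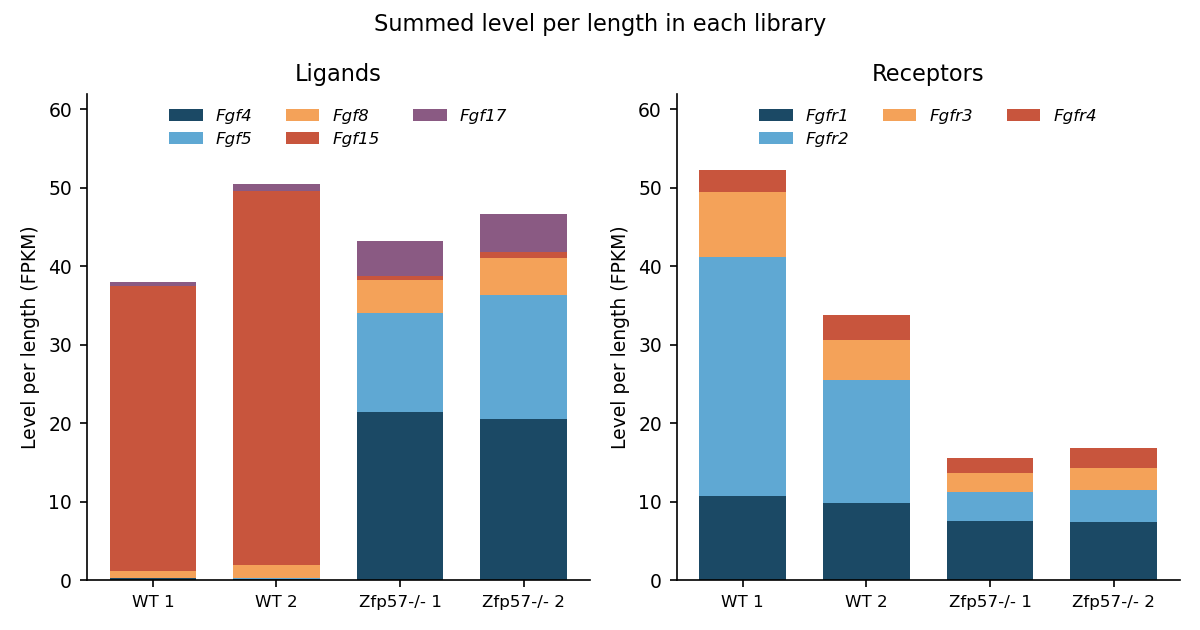
Level per length (FPKM, y axis) of the 5 ligands (left) and 4 receptors (right) stacked for each of the 4 libraries (x axis). The ligand bars have like heights in both genotypes but change from Fgf15 to Fgf4, Fgf5, Fgf8 and Fgf17, and the receptor bars fall from 33.8 to 52.2 FPKM in WT to 15.5 to 16.9 FPKM in Zfp57-/- libraries.

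Ordered by mean FPKM, the WT levels ran from Fgf15 (42.0), Fgfr2 (23.0), Fgfr1 (10.3), Fgfbp3 (9.21), Fgfr3 (6.75), Fgfr4 (2.95), Fgf8 (1.23) and Fgf17 (0.644) to Fgf4 (0.206) and Fgf5 (0.126). The ranges of the WT libraries overlapped between Fgfr1 and Fgfbp3, between Fgfbp3 and Fgfr3 and between Fgf8 and Fgf17, so these neighbours could not be ordered. In Zfp57-/- cells the order was Fgf4 (20.9), Fgf5 (14.2), Fgfr1 (7.47), Fgf17 (4.61), Fgf8 (4.45), Fgfr2 (3.90), Fgfr3 (2.61), Fgfr4 (2.22), Fgfbp3 (2.07) and Fgf15 (0.665). Neighbours whose ranges overlapped there were Fgf17 and Fgf8, Fgfr3 and Fgfr4, and Fgfr4 and Fgfbp3. Fgf4 and Fgf5, the lowest pair in WT, were the highest pair in Zfp57-/- cells, and Fgf15 went from first to last. The FPKM of Fgfr2 rests on a length of 10328 bases that includes 2 distal exons of 314 bases (3.04%) from a single transcript, Fgfr2-217, which stretches the gene over 2.96 Mb where the other 26 transcripts span 104 kb.

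The hybrid genome allowed the 2 alleles to be read apart where a SNP lay in the exons. The allelic ratio is maternal/(maternal + paternal), so JF1 reads over all allelic reads. Fgf4 and Fgf15 gave no usable ratio: each had 1 allelic count in all libraries together, of 1289 bulk counts for Fgf4 and 2463 for Fgf15, where 36.6% of all bulk counts were allelic. Fgfr1, Fgfr2, Fgfr3, Fgfr4 and Fgfbp3 had at least 10 allelic counts in both WT libraries and were tested. The genotype-by-allele contrast called none of these 5, with adjusted p from 0.362 to 0.918 by edgeR, where it called 14.5% of the 10977 genes tested. Over the alternative settings of edgeR and DESeq2 the lowest adjusted p of these 5 contrasts was 0.169.

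Fgfr2 had 615 and 413 maternal and 555 and 343 paternal counts in WT, and 74 and 108 maternal and 82 and 104 paternal counts in Zfp57-/- cells. Its ratio was 0.536 ± 0.015 (SD, n = 2) in WT and 0.492 ± 0.025 (SD, n = 2) in Zfp57-/- cells, and neither departed from equal alleles in edgeR's test (adjusted p = 0.132 and 0.923, where 23.6% of genes were called in WT and 21.8% in Zfp57-/- cells). Both alleles fell, the maternal with a log2 fold change of -2.60 (SE 0.40, adjusted p = 0.000754 by edgeR) and the paternal with -2.38 (SE 0.39, adjusted p = 0.00092 by edgeR). The difference between them was -0.24 (SE 0.19, adjusted p = 0.55 by edgeR). Both alleles of Fgfr3 fell as well, with log2 fold changes of -1.62 (SE 0.32, adjusted p = 0.0034 by edgeR) and -1.08 (SE 0.32, adjusted p = 0.0255 by edgeR). Fgfr2 and Fgfr3 therefore lost RNA from the maternal and the paternal copy, in a background in which 29.3% of genes were called for the maternal and 32.6% for the paternal allele. Without either Zfp57-/- replicate the adjusted p of the 4 allele changes of Fgfr2 and Fgfr3 ran from 0.0516 to 0.196, and that of the paternal Fgfr3 allele was 0.0995 without WT replicate 1 (edgeR).

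Fgfr1 had a ratio of 0.526 and 0.607 in WT and of 0.528 and 0.510 in Zfp57-/- libraries. The maternal excess in WT passed the threshold (log2 0.41, SE 0.12, adjusted p = 0.00665 by edgeR), in a test that called 23.6% of all genes in either direction, and rested on WT replicate 2, without which it was 0.15 (adjusted p = 0.792 by edgeR). DESeq2 did not call it (adjusted p = 0.389). The 15 nearest genes with enough reads had a median ratio of 0.581 in WT and 0.458 in Zfp57-/- cells, so the neighbourhood of Fgfr1 leaned the same way in WT. The maternal allele of Fgfr1 was called lower in Zfp57-/- cells (log2 fold change -0.63, SE 0.19, adjusted p = 0.0272 by edgeR) and the paternal was not (-0.34, SE 0.19, adjusted p = 0.19), but the difference between the alleles did not pass the test (adjusted p = 0.362 by edgeR), and the maternal call was lost without either Zfp57-/- replicate (adjusted p = 0.199 and 0.247, edgeR).

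Fgfbp3 showed a paternal excess in WT, with 11 maternal of 36 allelic counts in replicate 1 and 3 of 22 in replicate 2. Its pooled ratio of 0.241 had a 95% Wilson interval from 0.150 to 0.365, which covers counting error only, where the 15 nearest genes had a median of 0.482. The bias passed edgeR's test (log2 -1.68, SE 0.56, adjusted p = 0.0195), but not DESeq2's (adjusted p = 0.419), and it was lost in edgeR without either WT replicate (adjusted p = 0.205 and 0.585). In Zfp57-/- cells 11 allelic counts were left, 2 of them maternal. Fgfr4 had ratios of 0.617 and 0.479 in WT and 0.537 and 0.698 in Zfp57-/- cells, which overlapped.

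Fgf5, Fgf8 and Fgf17 had 3, 4 and 6 allelic counts in WT, so the change of each allele between genotypes is not given for them. In Zfp57-/- cells Fgf5 had 333 allelic counts, with ratios of 0.494 and 0.514 in the 2 libraries, so both copies were read there. Fgf8 had 21 and Fgf17 had 41 allelic counts in Zfp57-/- cells, with 14 and 16 of them maternal.

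**Figure D4:**
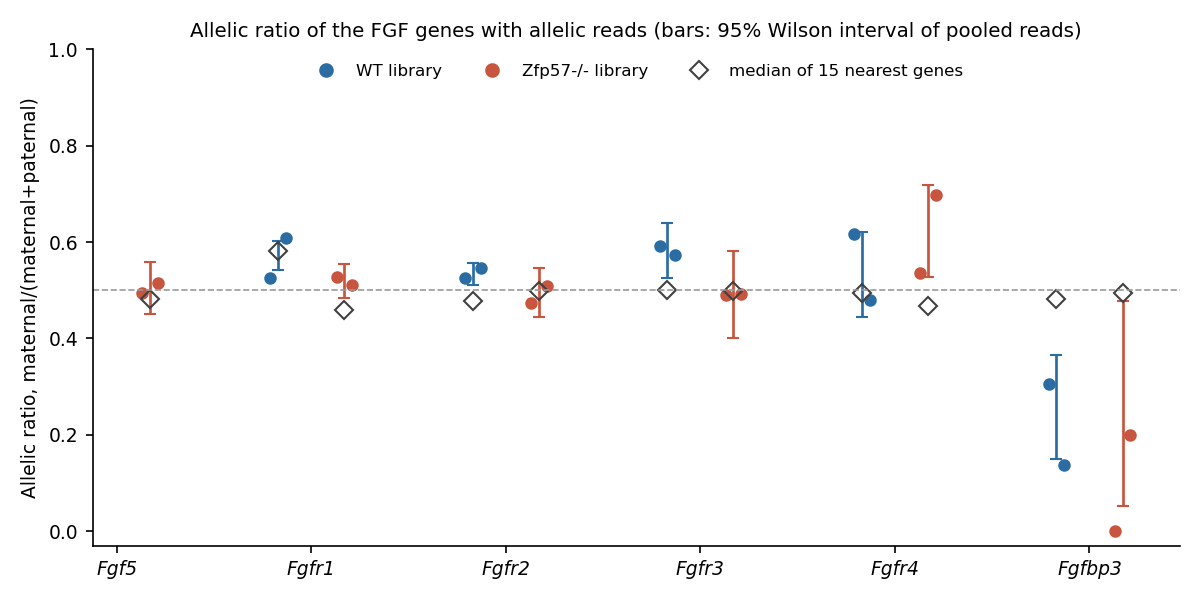
Allelic ratio, maternal/(maternal + paternal), of the FGF genes with allelic reads; points are libraries, bars the 95% Wilson interval of the pooled reads of a genotype, open diamonds the median of the 15 nearest genes, and the dashed line equal alleles. Fgf5 (Zfp57-/- only), Fgfr2 and Fgfr3 in Zfp57-/- cells lie near 0.5, and the WT interval of Fgfbp3, up to 0.365, lies below the median of its neighbours, 0.482.

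The rest of the pathway was described with 7 lists of other genes, 83 of which were tested. Of these 38.6% were called, 18 higher and 14 lower, and the median log2 fold change was 0.05, against 27.6% called and a median of -0.01 over all genes tested. The counts of each list below are to be read against the 13% of all genes tested that were higher and the 14.6% that were lower. The lists were chosen with earlier results of these data known and are not independent support for any direction.

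Of the listed inhibitors of the pathway, 6 of 11 were higher and 0 lower, with a median log2 fold change of 0.76. Spry4, a Sprouty inhibitor of the RAS pathway, had 45 and 144 counts in WT and 736 and 878 in Zfp57-/- cells (log2 fold change 3.10, SE 0.35, adjusted p = 0.000176 by edgeR). Spry1 had 101 and 201 counts in WT and 478 in each Zfp57-/- library (log2 fold change 1.65, SE 0.25, adjusted p = 0.000966 by edgeR). Il17rd, a membrane inhibitor also named Sef, rose by 1.51 (SE 0.22, adjusted p = 0.000967 by edgeR). The remaining called genes were Spry2, Dusp4 and Dusp6, whereas the Spred genes, Dusp5 and Rasa3 were not called. In every called inhibitor both Zfp57-/- libraries lay above both WT libraries. That follows closely from the call and is not further support, and 66.3% of all genes tested did not overlap. With Actb as the scale, 1 of the 11 inhibitors was called higher and 0 lower.

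The list of ERK target genes had 5 of 10 higher and 2 lower. By adjusted p the ETS factors Etv5 and Etv4 came first among those higher, and another, Etv1, was also called. Etv4 had 40 and 148 counts in WT and 495 and 519 in Zfp57-/- cells (log2 fold change 2.45, SE 0.38, adjusted p = 0.00126 by edgeR). Etv5 had 194 and 528 counts in WT and 1503 and 1430 in Zfp57-/- cells (log2 fold change 2.04, SE 0.31, adjusted p = 0.00105 by edgeR). Without WT replicate 2 the log2 fold changes were 3.42 for Etv4, 2.67 for Etv5 and 3.91 for the inhibitor Spry4. Myc rose by 1.41 (SE 0.27, adjusted p = 0.00385 by edgeR), and Fosl1, at 0 counts in both WT libraries, was at least 5.44-fold higher against a floor of 3 counts per library. The immediate early gene Fos (log2 fold change -1.21, adjusted p = 0.0324 by edgeR) and Ccnd1, described above, fell; without WT replicate 1 the value of Fos was -0.43. Egr1, another immediate early gene, was not called (log2 fold change -0.31, adjusted p = 0.36 by edgeR). WT replicate 1 had the lower count of Etv4, Etv5, Spry1, Spry4 and Myc of the WT libraries, and without it 6 target genes and 6 inhibitors were called higher.

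Of the 21 genes of the relay between receptor and ERK, which are adaptors, RAS and RAF proteins and kinases, 18 were not called, 1 was higher and 2 were lower. The counts moved with single libraries: 9 were called without WT replicate 1, 12 (7 higher and 5 lower) without WT replicate 2, and 1 without either Zfp57-/- replicate. The adaptor Shc1 rose by 0.88 (SE 0.19, adjusted p = 0.00844 by edgeR), and the RAS activators Sos2 and Sos1 had log2 fold changes of -1.19 and -0.73 (adjusted p = 0.00315 and 0.0177 by edgeR). Without Zfp57-/- replicate 1 or 2 the calls of Shc1 (adjusted p = 0.0641 and 0.131) and Sos1 (0.279 and 0.193) were lost.

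The remaining ligands of the family were mostly at low counts: 8 of 13 were tested, 3 were higher and 0 lower. Fgf10, a ligand of Fgfr2, had 21 and 33 counts in WT and 109 and 94 in Zfp57-/- cells (log2 fold change 1.88, SE 0.37, adjusted p = 0.00467 by edgeR), a call that was lost without Zfp57-/- replicate 1 (adjusted p = 0.0836 by edgeR). Fgf1 had 1 WT count and 26 Zfp57-/- counts, a ratio of 25.2 with an exact 95% counting interval from 4.15 to 1035, and Fgf22 at 0 WT counts was at least 1.92-fold higher. None of the 3 was called with Actb as the scale, and DESeq2 called neither Fgf1 (adjusted p = 0.0595) nor Fgf22 (adjusted p = 0.128). Without Zfp57-/- replicate 1, Fgf1 and Fgf22 did not pass the count filter and were not tested. Lower calls appeared in other fits: 3 without WT replicate 1, 2 with the replicate block and 1 with the stricter filter. The intracellular homologous factors, which resemble FGFs but are not secreted and bind sodium channels in neurons, went the other way: Fgf11, Fgf13 and Fgf12 of 4 were lower, with log2 fold changes of -3.23, -2.49 and -2.40 (adjusted p = 0.00347, 0.00378 and 0.016 by edgeR). The Fgf12 call was lost without Zfp57-/- replicate 2 (log2 fold change -1.77, adjusted p = 0.173), and its value was -3.49 without Zfp57-/- replicate 1. Fgf11, with 346 and 111 counts in WT, was at -1.93 without WT replicate 1 and at -3.92 without WT replicate 2.

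Among the co-receptors, decoys and other binding proteins, 1 of 6 was higher, Fgfbp1, and 1 lower, the FLRT family member Flrt1 with 112 and 92 counts in WT and 12 and 7 in Zfp57-/- cells (log2 fold change -3.48, SE 0.48, adjusted p = 0.000643 by edgeR). Klb, the co-receptor through which FGF15 acts in liver, was at 112 and 236 counts in WT and 161 and 254 in Zfp57-/- cells, and the groups overlapped. Heparan sulfate proteoglycans and the enzymes that make them had 2 of 23 higher and 6 lower, where 27.6% of all genes tested were called in either direction. Gpc4 and Sdc4 rose by 1.31 and 1.20 (adjusted p = 0.00234 and 0.00251 by edgeR), and Gpc2, Gpc6 and Sdc3 had log2 fold changes of -2.22, -1.14 and -1.01 (adjusted p = 0.000872, 0.00807 and 0.0103 by edgeR). Without Zfp57-/- replicate 2 the calls of Gpc6 and Sdc3 were lost (adjusted p = 0.0553 and 0.0532), and that of Sdc3 also without Zfp57-/- replicate 1 (0.109). The list had 13 calls without WT replicate 1, 12 without WT replicate 2, and 4 and 3 without Zfp57-/- replicates 1 and 2. Glypicans and syndecans thus appeared on both sides.

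**Figure D5:**
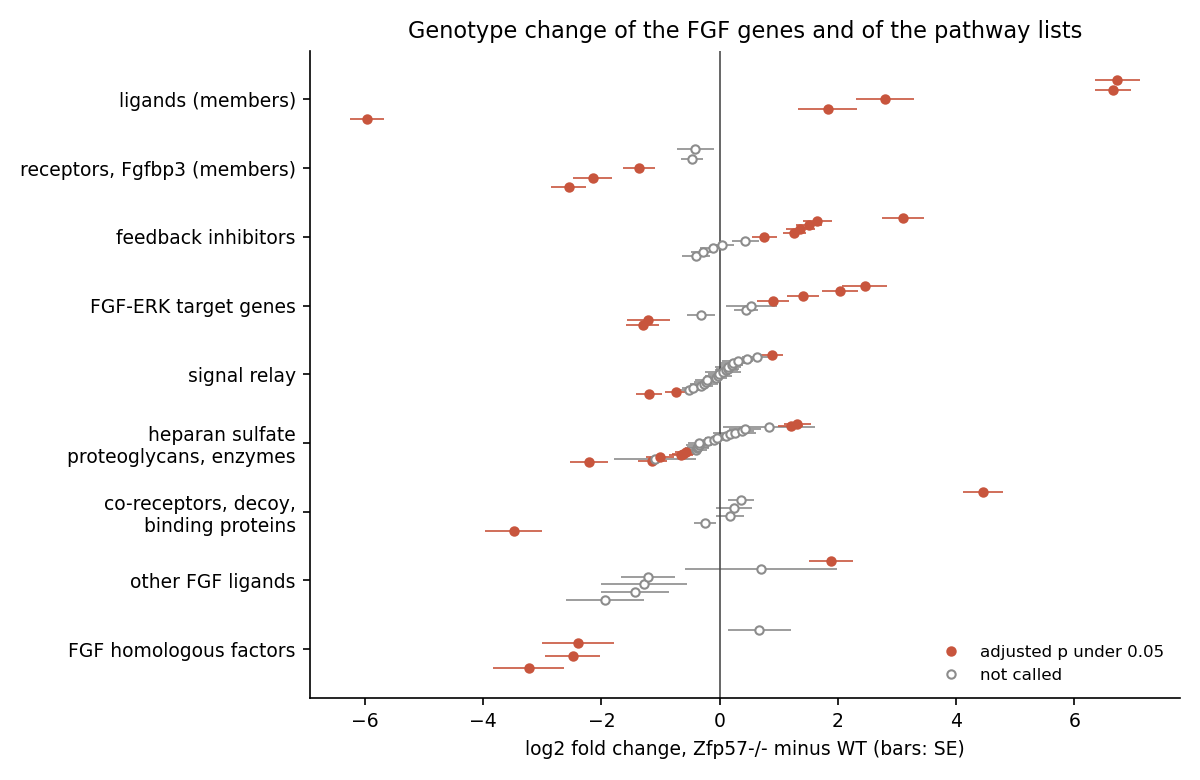
log2 fold change (Zfp57-/- minus WT, x axis, bars are SE) of the 10 FGF genes and of the 7 lists of other pathway genes (rows); filled points passed an adjusted p of 0.05. Genes with 3 counts or fewer in a genotype are left out. The called inhibitors all lie above 0, the called homologous factors below 0, and most relay genes sit near 0.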

How the data were processed

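Stranded total RNA-seq (ribosomal RNA depleted, paired-end) of 2 WT and 2 Zfp57-/- day 12 cultures was used. Per the submitters' processing notes, the file headers and the study's methods, reads were trimmed with Trimmomatic 0.36, aligned to GRCm38 (mm10) with STAR 2.5.4a keeping unique alignments, and assigned to GENCODE vM20 exons on the matching strand with featureCounts (Subread 1.6.0). The authors deposited raw counts per gene, and a second table of raw counts per gene and allele, made by splitting reads at strain SNPs with SNPsplit. No column was normalized. Symbols were matched for 54721 of 55602 gene IDs. Gene coordinates came with the deposited counts, transcripts are from GENCODE vM21, and promoters are from RefSeq.

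Counts were compared with edgeR 4.0.16 (R 4.3.3), robust quasi-likelihood test, TMM scaling, genes with more than 8 counts, adjusted p 0.05 (Benjamini-Hochberg over all genes). In the allele columns, libraries were blocked and the maternal-to-paternal difference was fitted in each genotype, for autosomal genes with at least 10 allelic counts in both WT libraries; a second fit gave the change of each allele, without modelling that alleles of 1 library are not independent. CPM and FPKM use TMM-scaled library sizes. On simulated data the bulk test recovered 98.9% of the 92 genes changed by 2 on the log2 scale, among 19514 genes. The changed genes were drawn from well-counted genes, and both genotypes were given the same spread. Low counts and the wider spread of the WT libraries were therefore not covered. Alternatives were DESeq2 1.42.0, other scalings, filters and thresholds, the replicate block and leaving out each library. All 10 members are named, and in each pathway list up to 3 called genes per direction by adjusted p. Of the marker genes that this rule picks only some are named. Others named were chosen after their values were seen. The members and lists were chosen with earlier results of these data known.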

Additional observations from a re-analysis of the deposited data

How the results depend on the processing

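Of the 10 FGF genes, none changed direction under any of the 12 alternatives to the bulk fit, and Fgf4, Fgf5, Fgf15, Fgfr2, Fgfr3 and Fgfbp3 stayed called in all of them. Fgf8 was not called with Actb as the scale (log2 fold change 1.33) or at an adjusted p of 0.01 (1.83), and ranged from 1.42 to 2.41 with a library left out. Fgf17 was not called with Actb as the scale (2.30), and Fgfr1 ranged from -0.53 to -0.43 with a library left out. Actb moved the median of all genes to -0.68. Over all genes, 5522 were called against 3478 with Actb as the scale (13.97% of them higher, against 47.2%), 2901 at an adjusted p of 0.01 and 2831 to 9947 with a library left out (9947 without WT replicate 2, 2831 and 2985 without Zfp57-/- replicates 1 and 2). Over the pathway lists 32 genes were called, against 16 with Actb as the scale, 21 at an adjusted p of 0.01 and 21 to 49 with a library left out (49 without WT replicate 1 or 2, 21 without Zfp57-/- replicate 1 or 2); these counts do not say which genes. DESeq2 called 1180, 742 and 837 genes for the allelic bias in WT, in Zfp57-/- cells and for their contrast, against 2587, 2395 and 1588. With a library left out, the bias in WT was called for 1367 to 3040 genes and the change of the maternal and paternal allele for 885 to 4337 and 1542 to 4615. Values that changed sign were never called: in fits that left out a library, the WT bias of Fgfr4 ranged from -0.12 to 0.68, the Zfp57-/- bias of Fgfr2 from -0.15 to 0.054, the contrast of Fgfbp3 from -1.51 to 0.55 (0.22 with the replicate block) and the maternal change of Fgfr4 from -0.53 to 0.15. The cause was not tested. A filter of at least 10 allelic counts over the 4 libraries, chosen after the data were seen, called the maternal change of 3429 and the paternal change of 3952 genes.

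The libraries share replicate numbers, but no source says that a number marks a shared culture, and the deviations of libraries with one number had a correlation of 0.15 (11736 genes). With the replicate block 6984 genes were called, and no call of the 10 FGF genes changed. Depth limits the WT values of Fgf4, Fgf5, Fgf8 and Fgf17, at most 23 counts in a library. Allelic reads were few for Fgf8, Fgf17 and Fgfbp3, with 25 to 69 in all. Fgf4 and Fgf15 had 1 allelic read each despite 1289 and 2463 bulk counts, so their missing ratios are not a matter of depth.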
